A study of Mus musculus with 16 samples.

Results

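The data compare sorted microglia of wild-type (WT) mice at postnatal day 14 (P14) with those at postnatal day 9 (P9). The libraries were chosen by their titles alone, 3 at P9 and 3 at P14, which is 6 of the 16 libraries of the series. All 6 came from mice labelled female and genotype WT, with no treatment and no strain named. The other 10 libraries are 3 at each of P9 and P14 labelled IRF8KO, and 2 adults of 3 months in each genotype, whose titles carry batch number 2. They entered the fit to share its estimate of spread and are quoted only where the WT change is set against them. Microglia were taken from each brain without enzymes, sorted by flow cytometry and sequenced in bulk. The sources used here do not give the sorting markers, the litters, or whether a sample pooled animals. The p-values therefore measure the spread between samples within groups, as the fit estimates it over all 16 libraries and not from the 6 WT libraries alone.

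Microglia are the resident macrophages of the brain and descend from yolk sac progenitors. In the first postnatal weeks they divide, clear dying cells and remodel synapses and myelin, and a subset in developing white matter carries Spp1, Gpnmb, Lpl and Igf1. As the brain matures they divide less and take on the surveying, homeostatic state marked by Tmem119, P2ry12, Cx3cr1 and Selplg, which depends on TGF-beta.

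The label of microglia was checked against these defining markers. The 10 genes with the highest mean level (CPM, reads of a gene per 1 M reads of its library, with libraries scaled by the trimmed mean of M-values, TMM) over the 6 libraries were Cst3, Csf1r, C1qb, Laptm5, Actb, Lgmn, Ctsd, C1qc, Apoe and Tmem119. Csf1r, the receptor for the survival factors CSF1 and IL-34, averaged 18280 ± 2897 CPM at P9 and 30780 ± 6747 CPM at P14 (SD, n = 3 each). Neutrophil markers summed to at most 9.51 CPM per library and those of monocytes to at most 18.4 CPM. Lymphocyte markers summed to 660.1, 866.1 and 759.9 CPM at P9 and 1088, 787.4 and 713.9 CPM at P14, nearly all from Ighm and Cd79b, with 13 of 15 under 1 CPM in all 6 libraries. Dendritic cell markers summed to 1287, 1366 and 1446 CPM and then 2407, 1856 and 1879 CPM, mostly from Siglech, which microglia also express. Border-associated macrophage markers summed to 1257, 1372 and 1369 CPM at P9 and 1551, 1727 and 1291 CPM at P14, with 7 of 15 below 1 CPM in all 6. Stab1, a scavenger receptor, made up most of these sums, at a mean of 1092 CPM at P9 and 1411 CPM at P14.

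Each library held 12.8 M to 14.6 M reads that named a gene. Between 22133 and 23186 genes had at least 1 read at P9 against 18103 to 20263 at P14, without overlap. Reads that mapped uniquely outside genes made up 15.3%, 12.1% and 13.5% at P9 and 6.39%, 9.12% and 13.6% at P14. Correlations of log2 CPM were 0.969 to 0.975 within P9, 0.945 to 0.971 within P14 and 0.924 to 0.953 between the ages. P14 replicate 1 stood farthest out: its TMM factor was 0.692 (0.799 to 1.17 in the other 5) and erythroid markers summed to 1401 CPM against 203.9 and 252.1 CPM in the other P14 libraries. Without it, 23 genes were higher and 406 lower. The libraries keep no strand information, so reads in exons shared with an antisense or overlapping partner cannot be assigned to 1 gene. Ambiguous reads, 7.1% to 8.7% of uniquely mapped reads, were left out of the counts. Antisense reads elsewhere in the exons of a gene cannot be told from its own.

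Few genes rose and many weakly expressed genes fell between P9 and P14. Of 18295 genes tested by edgeR's quasi-likelihood test, 85 were higher at P14 (0.465%) and 700 were lower (3.83%), at an adjusted p of 0.05. The genes that rose were mostly well expressed, with a median of 70.99 CPM at P14. Those that fell had a median of 2.33 CPM at P9, and 86 of the 700 reached a mean of 10 CPM. Without regard to the test, the 3 P14 libraries lay above all 3 P9 libraries for 2063 genes (11.3%) and below them for 3438 genes (18.8%). The median log2 fold change over all genes tested was -0.16. With plain library totals in place of TMM scaling it was -0.52, so changes are read against that median. Leaving out any 1 of the 6 libraries gave 14 to 43 genes higher and 100 to 546 lower, the fewest lower without P14 replicate 2. A fit on the 6 libraries alone gave 256 higher and 663 lower.

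**Figure D1:**
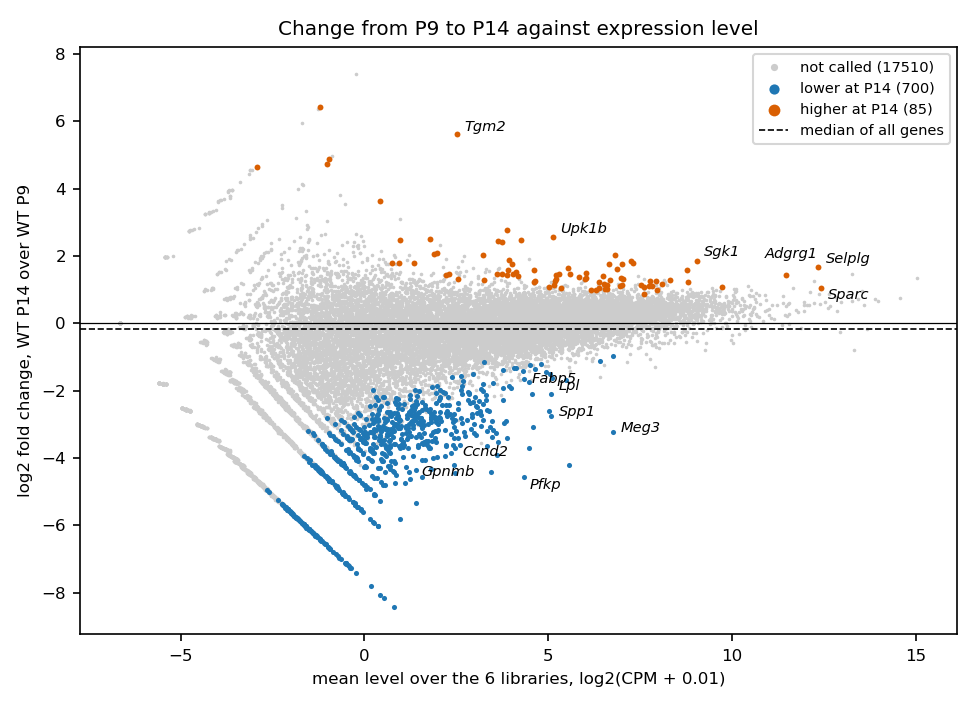
Log2 fold change of WT P14 over WT P9 (vertical axis) against the mean level over the 6 libraries (horizontal axis, log2 of CPM plus 0.01) for 18295 genes. Orange points are the 85 genes higher at P14 and blue points the 700 lower; the genes that fell lie mostly at low levels, and the dashed line is the median of -0.16.

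Tgm2 showed the largest fitted rise among the genes at 10 CPM or more. It encodes transglutaminase 2, an enzyme that crosslinks proteins, and lies at chr2:158116402-158146436 on the minus strand (mm10). Tgm2 measured 0.261, 0.329 and 0.0743 CPM at P9 and 13.5, 11.2 and 9.20 CPM at P14. It went from a total of 9 reads to 377 reads, and every P14 library was far above every P9 library. The fitted log2 fold change of Tgm2 was 5.61 ± 0.55 (SE, adjusted p = 0.000166, n = 3 each), and the call held without any 1 of the 6 libraries. Exons of other genes cover 21.8% of its exon length. In the 2 WT adult libraries Tgm2 stood at 68.5 and 181 CPM, above all 6 younger libraries.

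Several other genes with large rises encode membrane proteins, enzymes and kinases. Upk1b, a tetraspanin of the uroplakin family, measured 8.86, 12.01 and 9.21 CPM at P9 and 84.0, 35.7 and 59.4 CPM at P14 (log2 fold change 2.57 ± 0.48 (SE), adjusted p = 0.00957). Sgk1, a serine/threonine kinase induced by serum and glucocorticoids, went from 202.8, 277.0 and 209.2 CPM to 1079, 709.3 and 692.7 CPM (1.85 ± 0.30, adjusted p = 0.00493). Both genes were separated between the ages, and both calls held in all 6 fits without 1 library. Slco4a1, an organic anion transporter, rose from 55.3, 77.3 and 67.2 CPM to 255, 258 and 211 CPM (1.86 ± 0.34, adjusted p = 0.0091). Notch4, a Notch receptor best known from endothelium, rose from 3.06, 5.76 and 4.01 CPM to 25.5, 19.5 and 22.99 CPM (2.40 ± 0.54, adjusted p = 0.0198), a call lost in 5 of the 6 fits without 1 library. Endothelial and mural markers as a list summed to 54.2 to 54.9 CPM at P9 and 69.9 to 81.5 CPM at P14, with 9 of 15 under 1 CPM in all 6 libraries and none called, and their part in the rise of Notch4 was not tested.

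Of the remaining genes with the 12 largest rises, Hs3st2 (a heparan sulphate sulphotransferase) and Chst8 (a carbohydrate sulphotransferase) modify sugar chains, and Thrsp acts in fatty acid synthesis. Hs3st2 measured 2.61, 3.04 and 5.57 CPM at P9 and 31.7, 23.3 and 22.4 CPM at P14 (log2 fold change 2.78 ± 0.43). In WT adults Hs3st2 stood at 2.31 and 4.69 CPM, below all 3 P14 libraries. Thrsp measured 4.56, 6.83 and 6.17 CPM at P9 and 45.7, 28.1 and 23.4 CPM at P14 (2.47 ± 0.46). Chst8, Tmem52, Trp53i11, Klhdc8b and Mymk had log2 fold changes of 2.02, 2.01, 1.87, 1.80 and 1.77, each without overlap between the ages. Of these 5, the calls of Tmem52, Trp53i11 and Klhdc8b held in all 6 fits without 1 library, that of Chst8 in 1 and that of Mymk in 0. The adrenergic receptor gene Adrb1, picked after its values were seen, was called at a log2 fold change of 1.59 ± 0.33, a call lost in 4 of the 6 fits without 1 library.

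**Figure D2:**
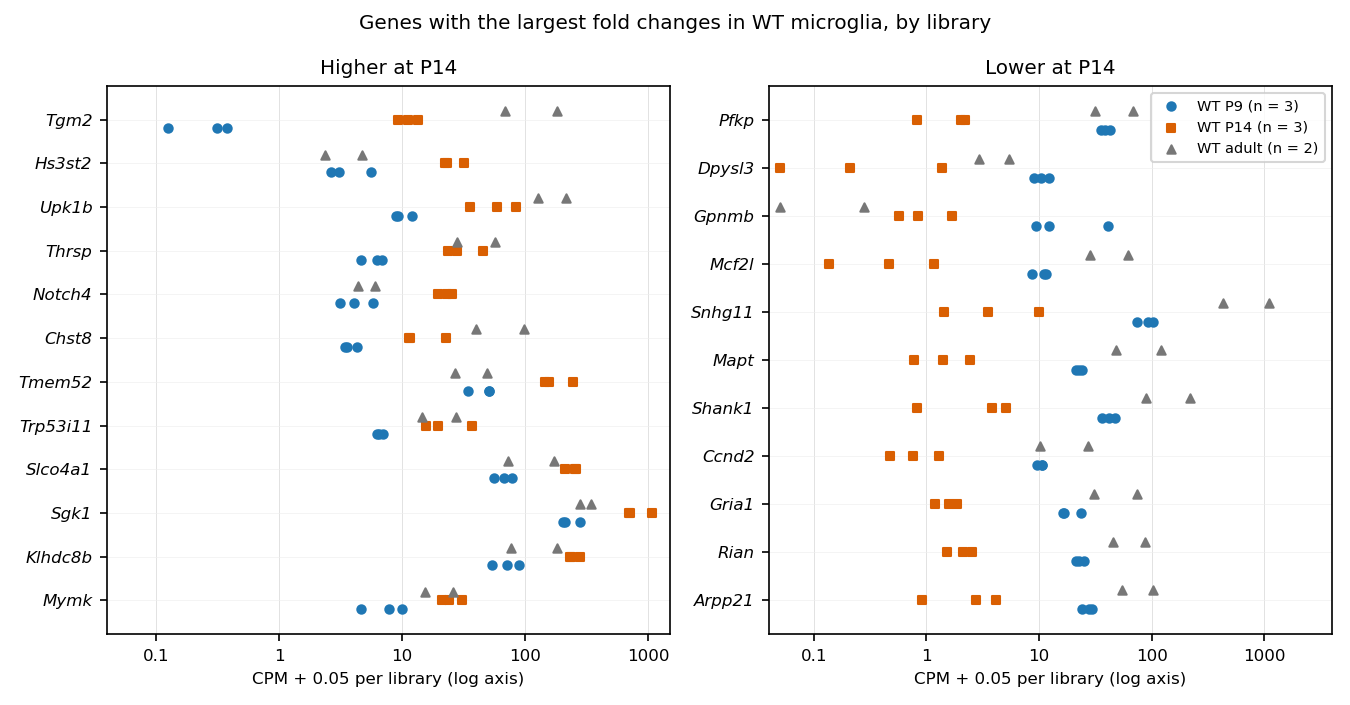
Level in each WT library of the 12 genes with the largest rises (left) and 11 of those with the largest falls (right), as CPM plus 0.05 on a log axis; circles are P9, squares P14 and triangles adults. No P9 and P14 points of these 23 genes overlap, and most genes of the right panel are back at or above their P9 level in the adult libraries.

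Genes of the homeostatic microglia signature stood higher at P14 as a list, and 3 of the 33 passed the test (0.465% of all genes were called higher). Of 33 members, 31 had a log2 fold change above 0, against 7649 of all 18295 genes, and 24 had all P14 libraries above all P9 libraries, against 11.3% of all genes. The median was 0.59, against -0.16 over all genes. With no scaling factors the 2 medians were 0.22 and -0.52. Selplg, the P-selectin ligand, measured 1979, 2935 and 2545 CPM at P9 and 10130, 7324 and 6530 CPM at P14 (log2 fold change 1.69 ± 0.38, adjusted p = 0.0193). Adgrg1, the adhesion receptor GPR56, measured 1201, 1693 and 1756 CPM at P9 and 4888, 4533 and 3111 CPM at P14 (1.43 ± 0.35, adjusted p = 0.027). Sparc, a secreted matrix protein, measured 3275, 3951 and 3479 CPM at P9 and 9356, 6613 and 6363 CPM at P14 (1.06 ± 0.28, adjusted p = 0.0389). None of the 3 genes overlapped between the ages. In the 2 WT adult libraries the list summed to 108100 and 235700 CPM, against 101200, 140900 and 127800 CPM at P9 and 272800, 215700 and 187000 CPM at P14. Adult levels were 5023 and 10320 CPM for Selplg and 1413 and 3450 CPM for Adgrg1. Sparc stood at 1455 and 1573 CPM in adults, below all P9 libraries. The calls were sensitive to single libraries: Sparc lost its call in all 6 such fits, Adgrg1 in 5 and Selplg in 4.

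The best known homeostatic markers did not all move alike. Tmem119, a membrane protein used to tell microglia from other macrophages, measured 4076, 6304 and 5429 CPM at P9 and 17180, 14900 and 11890 CPM at P14. The P14 libraries were all above those of P9, but the adjusted p was 0.0603 at a log2 fold change of 1.48 ± 0.43. Cst3, the protease inhibitor cystatin C, averaged 19120 ± 4424 and 48460 ± 11010 CPM (SD, n = 3 each; adjusted p = 0.128). P2ry12, the ADP receptor that steers microglial processes, overlapped between the ages, with 1031, 480.0 and 812.8 CPM at P9 and 357.5, 1253 and 1405 CPM at P14 (0.38 ± 0.70, adjusted p = 0.828). Cx3cr1, the fractalkine receptor, was at 2736, 2656 and 2694 CPM and then 2790, 3174 and 3418 CPM (0.21 ± 0.34, adjusted p = 0.792). Sall1, a transcription factor of microglial identity, had 188, 148 and 153 CPM at P9 and 125, 194 and 235 CPM at P14. The 3 lowest members were Mef2c at -0.46, Gas6 at -0.09 and Gpr34 at 0.03 on the log2 scale, none of them called.

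Genes of the early postnatal and disease-associated programme were lower at P14. This list holds genes that are high in phagocytic microglia of developing white matter and again in disease. Of 26 tested members 7 fell and 0 rose, against 3.83% of all genes called lower. In 17 members all P14 libraries were below all P9 libraries, against 18.8% of all genes. The median log2 fold change was -0.92. Spp1 encodes osteopontin, a secreted phosphoprotein that binds integrins, at chr5:104435118-104441050 on the plus strand. Its promoter is shown because it is the one member of this list whose call held in every fit tried apart from the replicate block. RefSeq (GRCm38.p6) places 300 bases around a start of Spp1 at chr5:104434861-104435160, on the plus strand, and capitals mark a match to the ISRE, then to PU.1, then to the CCAAT box.
Spp1: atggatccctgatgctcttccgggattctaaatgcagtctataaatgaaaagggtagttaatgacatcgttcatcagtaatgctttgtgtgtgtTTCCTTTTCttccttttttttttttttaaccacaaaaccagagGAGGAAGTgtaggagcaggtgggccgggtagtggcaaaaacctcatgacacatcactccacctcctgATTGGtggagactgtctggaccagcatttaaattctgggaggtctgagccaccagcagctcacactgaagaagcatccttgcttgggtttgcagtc

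The motifs were searched on both strands. ISRE was taken as GAAANNGAA, the element of interferon regulatory and STAT factors, PU.1 as GAGGAAGT, the site of the macrophage lineage factor PU.1, and the CCAAT box as CCAAT. Of all 32851 RefSeq mouse promoters of this length, 8.56% hold the ISRE, 3.20% the PU.1 letters and 37.4% the CCAAT box. A second RefSeq window of Spp1, at chr5:104435942-104436241, holds none of these motifs. Of 22 genes of this list with a promoter, 4 held the ISRE (18.2%), 1 PU.1 (4.55%) and 9 the CCAAT box (40.9%). Among genes called lower the shares were 10.3%, 0.939% and 42.5%, against 8.78%, 3.61% and 42.4% of all genes tested. A match is a string of letters and not a binding site.

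Spp1 measured 67.2, 60.0 and 50.6 CPM at P9 and 5.24, 13.5 and 7.45 CPM at P14. The lowest P9 library was above the highest P14 library, and the fitted log2 fold change of Spp1 was -2.76 ± 0.54 (SE, adjusted p = 0.0118), which is 6.78-fold lower. Exons of another gene cover 18.8% of its exon length. Spp1 was lower still in adults, at 2.13 and 0.916 CPM. Gpnmb, a transmembrane glycoprotein of lysosomes, measured 12.3, 41.0 and 9.43 CPM at P9 and 1.64, 0.515 and 0.793 CPM at P14 (-4.42 ± 0.62, adjusted p = 0.00433). The P9 value of replicate 2 was the highest, and the call held without it. Lpl, the lipoprotein lipase that releases fatty acids, measured 62.5, 53.0 and 49.5 CPM at P9 and 6.47, 13.4 and 18.9 CPM at P14 (-2.09 ± 0.45, adjusted p = 0.0163). Fabp5, a fatty acid carrier, measured 29.2, 32.5 and 31.6 CPM and then 11.5, 8.93 and 8.96 CPM (-1.67 ± 0.37, adjusted p = 0.0193).

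The other 3 that fell bind membranes or sugars. They are the annexins Anxa2 (log2 fold change -2.499) and Anxa5 (-1.68), which bind phospholipids, and the galectin Lgals1 (-1.93). Igf1, a growth factor that microglia supply to young white matter, measured 11.3, 11.5 and 7.43 CPM at P9 and 0.719, 3.86 and 1.11 CPM at P14, with an adjusted p of 0.0552. Clec7a, the receptor dectin-1, had 28 reads over the P9 libraries and 0 over those of P14, at least 7.75-fold lower when 3 reads are placed over the P14 group, with an adjusted p of 0.0809. The most abundant members did not pass. Apoe, the lipid carrier, measured 9527, 14410 and 14820 CPM at P9 and 9114, 7067 and 6337 CPM at P14 (-0.78 ± 0.48, adjusted p = 0.418). The lysosomal proteases Ctsb, Ctsz and Ctsl lay at -0.26, -0.14 and -0.03, and the lysosomal protein Cd68 at 0.55. Without P14 replicate 2 the list had 2 calls, and without the other single libraries 4 to 7. In the WT adult libraries Gpnmb, Anxa2, Lgals1 and Fabp5 stood below all P14 libraries, as Spp1 did. Anxa5 stood above all of them, at 30.7 and 54.6 CPM, and Lpl at 28.1 and 9.16 CPM. Of members not called, Clec7a and Axl stood above every younger WT library, and Apoe, Csf1 and Ccl3 below.

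Genes of the lists for DNA replication and mitosis lay lower at P14, and none of their members passed the test over all genes. All 29 tested DNA replication genes had a log2 fold change below 0 (median -0.87), and 23 had every P14 library below every P9 library, against 18.8% of all genes. Of 30 mitosis genes 29 lay below 0 (median -1.18), and 21 were separated in that way. In edgeR's quasi-likelihood test 0 of both lists were called, with 16 replication and 12 mitosis genes lower at an unadjusted p under 0.05. DESeq2 called 6 lower in each list and limma voom 3 in each. Over all 18295 genes 2564 were lower at an unadjusted p under 0.05, DESeq2 called 1297 lower and limma voom 864. On the 6 libraries alone edgeR called 11 replication and 4 mitosis genes lower, against 663 of all 13655 genes tested there. The replication genes Wdhd1 and Dna2, which neither list holds and which were picked after their values were seen, were called lower at -1.81 and -1.24 (adjusted p = 0.0271 and 0.049). Summed over the 30 replication genes the level was 1927, 2445 and 2073 CPM at P9 and 1273, 1511 and 1039 CPM at P14. The mitosis genes summed to 661.3, 709.1 and 604.0 CPM at P9 and 436.1, 466.9 and 361.6 CPM at P14. In adults the sums were 282.2 and 403.5 CPM for replication and 58.5 and 92.2 CPM for mitosis. In bulk libraries fewer dividing cells and less RNA of these genes per cell cannot be told apart.

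Mcm6 belongs to the MCM helicase that opens DNA at replication origins, and Top2a encodes the topoisomerase that untangles chromosomes. Mcm6 measured 184.9, 211.0 and 186.0 CPM at P9 and 88.0, 105.2 and 70.8 CPM at P14, without overlap (log2 fold change -1.14 ± 0.35, adjusted p = 0.0769). Top2a measured 41.2, 15.7 and 29.1 CPM at P9 and 2.26, 13.4 and 11.3 CPM at P14 (-1.67 ± 0.59, adjusted p = 0.127), and P9 replicate 2 came close to the P14 libraries. Mki67, the proliferation marker Ki-67, measured 29.4, 16.8 and 20.9 CPM and then 2.05, 10.7 and 7.21 CPM (adjusted p = 0.118). Among the others Prim1, a primase subunit (-1.80), and Pole, the leading-strand polymerase (-1.50), had adjusted p of 0.0709 and 0.0603. Espl1, the separase that splits sister chromatids, was the exception among mitosis genes at 0.42.

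The promoters of Mcm6 and Top2a are printed because nearly all members of these lists lay on one side of 0 and their promoters share letters. Both are RefSeq windows of 300 bases in GRCm38.p6, read 5′ to 3′ on the minus strand, Mcm6 at chr1:128359656-128359955 and Top2a at chr11:99024140-99024439. In Mcm6 capitals mark E2F matches, 2 of which overlap in the first run, and CCAAT boxes, written ATTGG where they lie on the other strand. In Top2a they mark CCAAT boxes and 2 matches to the cell cycle homology region (CHR).
Mcm6: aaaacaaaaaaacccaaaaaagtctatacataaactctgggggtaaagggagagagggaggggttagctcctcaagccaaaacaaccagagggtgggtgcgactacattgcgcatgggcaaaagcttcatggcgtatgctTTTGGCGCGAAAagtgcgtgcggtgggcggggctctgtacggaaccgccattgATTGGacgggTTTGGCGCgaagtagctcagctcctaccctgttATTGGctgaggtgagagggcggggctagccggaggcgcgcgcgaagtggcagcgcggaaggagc
Top2a: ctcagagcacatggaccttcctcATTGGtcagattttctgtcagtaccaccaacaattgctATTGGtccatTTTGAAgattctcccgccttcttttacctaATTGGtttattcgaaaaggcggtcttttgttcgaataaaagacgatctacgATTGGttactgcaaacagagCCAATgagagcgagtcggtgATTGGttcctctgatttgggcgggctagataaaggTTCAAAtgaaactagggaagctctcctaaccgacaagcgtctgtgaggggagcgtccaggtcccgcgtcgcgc

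E2F was searched as TTTCCCGC, TTTGGCGC, TTTCGCGC, TTTGCCGC or TTTCCCGG, and the CHR as TTTGAA. E2F factors act at genes of the S phase, and the CHR is bound by the MuvB complexes that act at mitotic genes. An E2F match stood in 10 of the 24 replication genes with a RefSeq promoter (41.7%), against 6.62% of 11771 tested genes with one. A CHR match stood in 19 of 25 mitosis genes (76.0%), against 14.5%, and a CCAAT box in 20 of 25 (80.0%), against 42.4%. Among the genes called lower, 3.52% of 426 promoters held E2F and 12.7% the CHR, at or below the share of all genes tested. Among those called higher the shares were 4.62% and 7.69% of 65.

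Among regulators of the cycle, 1 of 16 cell cycle inhibitors and exit genes rose and 1 fell, against 0.465% and 3.83% of all genes. Btg2, an antiproliferative gene, measured 61.8, 62.8 and 59.8 CPM at P9 and 152, 115 and 108 CPM at P14 (log2 fold change 1.02 ± 0.27, adjusted p = 0.0388). The call was lost in all 6 fits without 1 library. Btg2 is also on the list of dissociation and immediate early genes, whose summed level was higher at P14. Ccnd2, which encodes cyclin D2, a driver of entry into the cycle, measured 10.5, 9.62 and 10.6 CPM at P9 and 1.23, 0.429 and 0.714 CPM at P14 (-3.70 ± 0.44, adjusted p = 0.000858). That call held in all 6 fits without 1 library. It was lost with the mean of neuron markers as a covariate in the edgeR fit (adjusted p = 0.0842). In WT adults Ccnd2 stood at 10.1 and 27.25 CPM. Its related gene Ccnd1 had 46.1, 45.8 and 43.6 CPM at P9 and 38.1, 35.3 and 38.5 CPM at P14 (-0.28, adjusted p = 0.624). Ccnd3 had 61.3, 89.4 and 86.5 CPM and then 109, 120 and 92.5 CPM (0.44, adjusted p = 0.454).

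**Figure D3:**
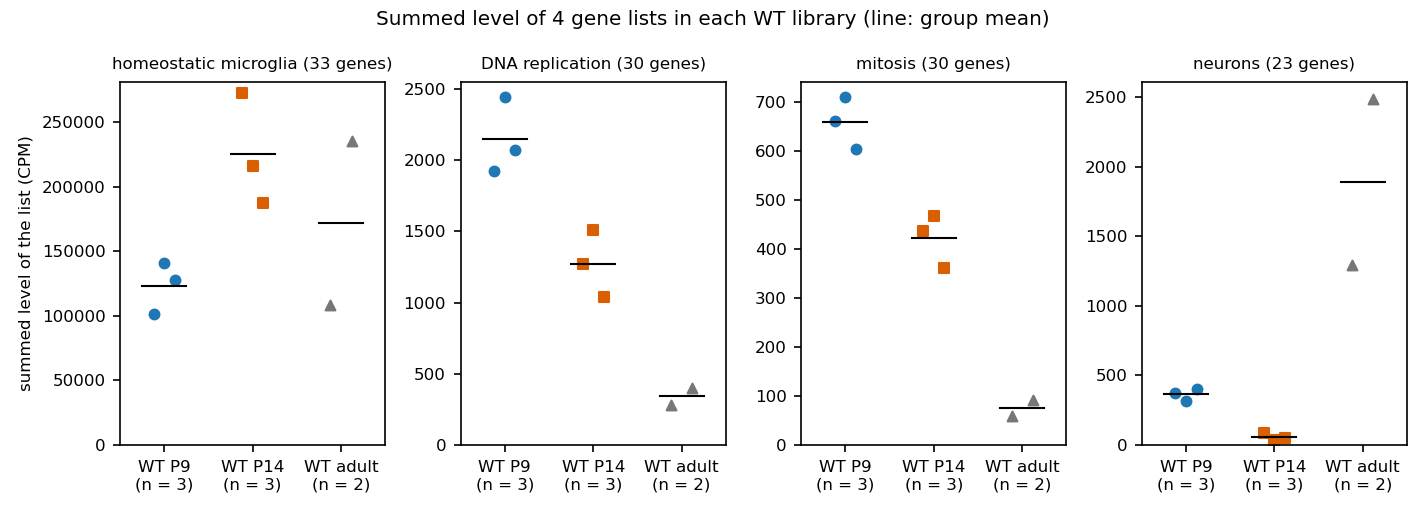
Summed level, in CPM on a linear axis from 0, of 4 gene lists in each WT library, with a line at each group mean (3 libraries at P9, 3 at P14, 2 adults). Homeostatic genes are higher at P14 than at P9, and their 2 adult sums lie far apart, at 108100 and 235700 CPM. Replication, mitosis and neuronal genes are lower at P14. In adults the replication and mitosis sums are lowest while the neuronal sums are highest.

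TGF-beta signalling maintains the microglial state, and 1 of its 20 tested genes rose and 2 fell, against 0.465% and 3.83% of all genes. Pmepa1, a target and feedback inhibitor of the pathway, measured 49.7, 51.3 and 49.2 CPM at P9 and 121, 129 and 101 CPM at P14 (log2 fold change 1.23 ± 0.23, adjusted p = 0.0101). The call was lost in 1 of the 6 fits without 1 library, with no scaling factors and with the mean of neuron markers as a covariate. The pair that fell was barely expressed: Tgfbr3, a co-receptor, had 31 reads at P9 and 0 at P14, at least 8.57-fold lower, and the ligand gene Tgfb2 had 22 and 0 reads, at least 6.09-fold lower. Both calls were lost in 5 of the 6 fits without 1 library. The co-receptor Eng (1.01), the ligand Tgfb1 (0.66) and the effector Smad3 (0.77) had adjusted p of 0.0696, 0.293 and 0.171. The median of the list was 0.19, and -0.16 with no scaling factors.

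Calls in the lists for metabolism are set against all genes, of which 0.465% were called higher and 3.83% lower. Glycolysis had 2 lower of 21. One is Pfkp, the platelet form of the phosphofructokinase that commits glucose to glycolysis, with 43.1, 35.7 and 38.5 CPM at P9 and 2.16, 0.773 and 1.98 CPM at P14 (log2 fold change -4.57 ± 0.52, adjusted p = 0.000795). Pfkp had the largest fall among genes at 10 CPM or more, and the call held in all 6 fits without 1 library. It was lost with the mean of neuron markers as a covariate in the edgeR fit (adjusted p = 0.0704). In WT adults Pfkp stood at 31.3 and 67.8 CPM. The other glycolysis call is Slc16a1, the lactate transporter MCT1 (-1.32 ± 0.35, adjusted p = 0.0384), lost in all 6 fits without 1 library. Lpl was the 1 called of 20 LXR targets and lipid handling genes (median -0.35). The 24 cholesterol synthesis genes had a median of -0.37, with none called.

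The 10 lists of immune function, with 219 entries tested, held 0 calls in edgeR's quasi-likelihood test. At an unadjusted p under 0.05 there were 21 higher and 11 lower, DESeq2 called 2 higher and 5 lower, and limma voom called 0. Over all 18295 genes these counts were 733 and 2564, with 197 and 1297 by DESeq2 and 102 and 864 by limma voom. The medians were 0.38 for MHC class I (16 tested), 0.27 for MHC class II (9), 0.25 for complement and Fc receptors (18) and 0.35 for the lysosome (31). With no scaling factors these 4 medians were -0.0011, -0.11, -0.15 and -0.04. Interferon-stimulated genes had a median of -0.20 over 30 members, and Irf9, a subunit of the interferon-activated complex, measured 83.1, 108 and 97.2 CPM at P9 and 165, 121 and 123 CPM at P14 (adjusted p = 0.341). Medians were -0.03 for phagocytic receptors, -0.07 for inflammatory cytokines and sensors, -0.01 for Toll-like receptors and adaptors, 0.12 for purinergic receptors and ectoenzymes and 0.05 for macrophage transcription factors. Irf8, the transcription factor named in the label of the other genotype, measured 538, 715 and 639 CPM at P9 and 1215, 882 and 735 CPM at P14 (0.58 ± 0.32, adjusted p = 0.366). The transcription factor genes Irf5 and Cebpa lay at 0.83 and 0.90 with adjusted p of 0.161 and 0.207. Oxidative phosphorylation and cytosolic ribosomal protein genes had medians of 0.17 and 0.21, which were -0.23 and -0.19 with no scaling factors. Together with cholesterol synthesis and mitochondrially encoded genes they had 0 calls by edgeR, DESeq2 or limma voom, and 0 higher and 3 lower of 96 at an unadjusted p under 0.05. Of 24 dissociation and immediate early genes only Btg2 was called, which the cell cycle list also holds. Their summed level was nonetheless higher at P14, at 504.7, 659.8 and 534.3 CPM at P9 and 1148, 823.1 and 780.1 CPM at P14. In 8 members all P14 libraries were above all P9 libraries, against 11.3% of all genes, and in 3 all were below, against 18.8%. At an unadjusted p under 0.05 there were 6 higher and 2 lower. The part of sample handling in these values was not tested. Mitochondrially encoded genes (8 tested, 0 called) had a median of -0.63, and their share of gene reads was 0.539%, 0.261% and 0.366% at P9 and 0.112%, 0.221% and 0.283% at P14.

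**Figure D4:**
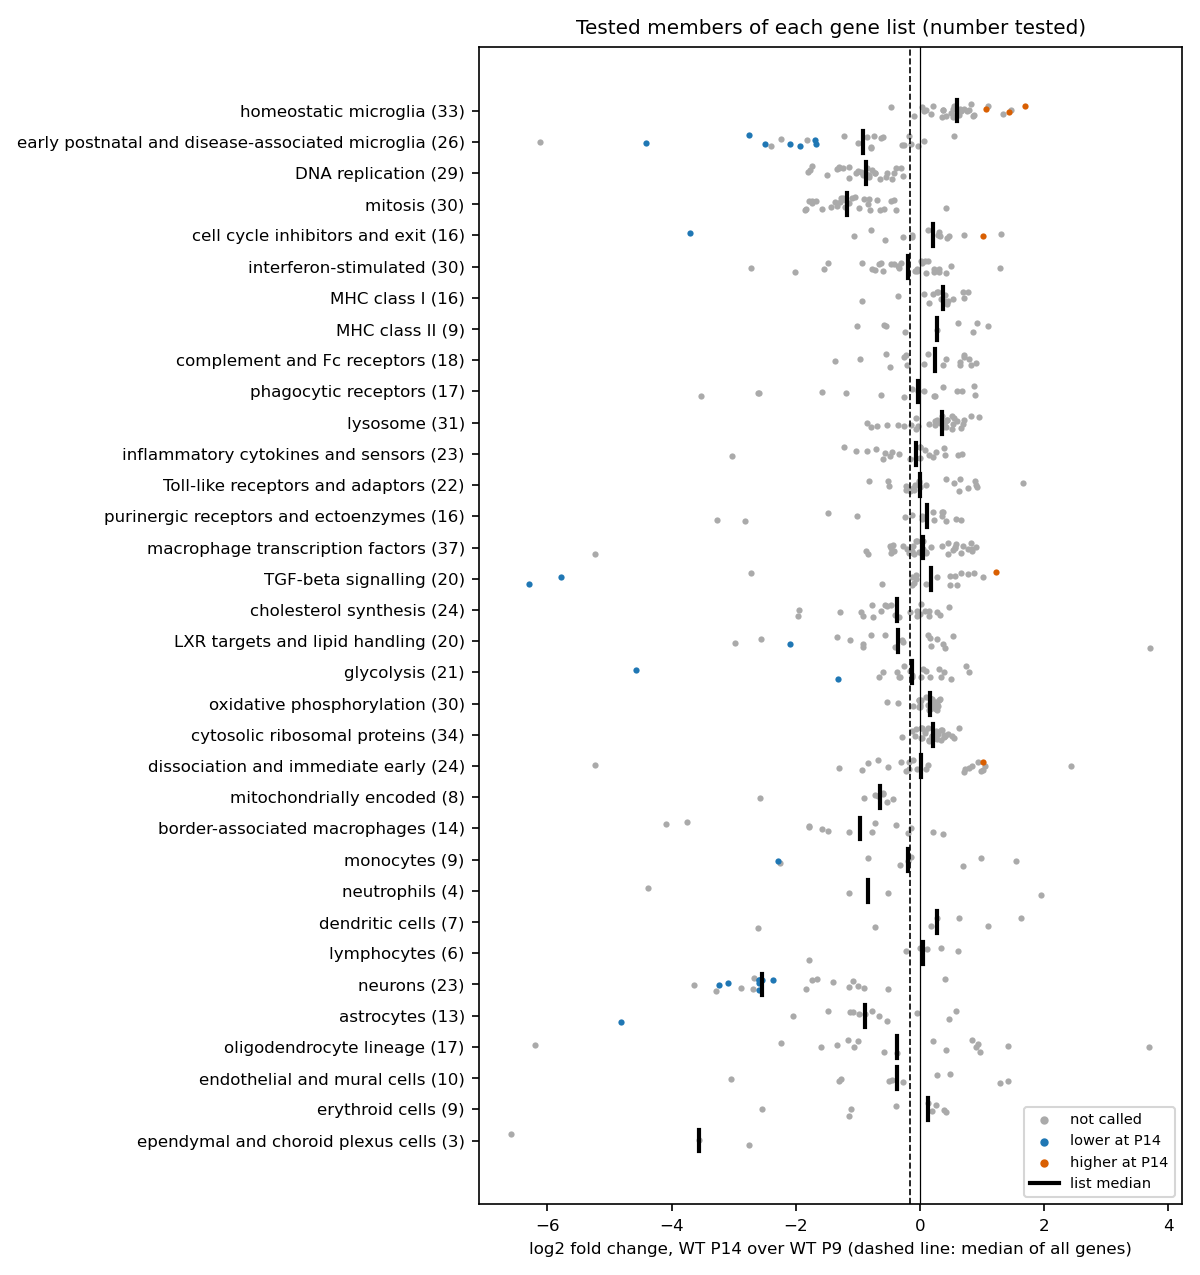
Log2 fold change of WT P14 over WT P9 for the tested members of 34 gene lists, 1 row per list, with the number tested in brackets; orange points were called higher, blue points lower, and the black bar is the list median. The homeostatic list lies to the right of the dashed median of all genes, and the replication, mitosis and neuronal lists to its left.

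Neuronal transcripts were lower at P14 in WT microglia. Of 23 tested neuron markers 8 fell and 0 rose (median log2 fold change -2.54), against 3.83% of all genes called lower. In 17 of them all P14 libraries were below all P9 libraries, against 18.8% of all genes. The list summed to 370.6, 316.5 and 405.6 CPM at P9 and 86.8, 35.3 and 51.1 CPM at P14, without overlap. Meg3, a long noncoding RNA abundant in neurons, measured 196, 172 and 224 CPM at P9 and 35.1, 8.76 and 19.2 CPM at P14 (-3.23 ± 0.55, adjusted p = 0.0064). Gria2, a subunit of AMPA glutamate receptors, measured 40.9, 38.5 and 50.5 CPM and then 8.22, 2.49 and 4.599 CPM (-3.09 ± 0.60, adjusted p = 0.0106). The others that fell were Tubb3, Grin1, Nrxn3, Map2, Syt1 and Stmn2, with log2 fold changes from -2.60 to -2.36. Snap25, Rbfox3 and Slc17a7, which define neurons, had adjusted p of 0.0531, 0.0524 and 0.0683. Leaving out 1 library at a time gave 1 to 7 calls in the list, the fewest without P14 replicate 2.

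Among the largest falls were also genes known from neurons, a grouping made by hand after their values were seen. They are Mapt (tau, -3.91), Shank1 (a postsynaptic scaffold, -3.70), Gria1 (an AMPA receptor subunit, -3.63), Dpysl3 (an axon growth protein, -4.44), Arpp21 (-3.41), and the noncoding Snhg11 (-4.20) and Rian (-3.52). Snhg11 measured 102, 74.0 and 93.4 CPM at P9 and 9.96, 1.37 and 3.49 CPM at P14. In the 2 WT adult libraries, all of them in batch 2, Snhg11 stood at 433 and 1099 CPM and the neuron list summed to 1292 and 2490 CPM. Mcf2l, a guanine nucleotide exchange factor, is also among the largest falls, with Pfkp, Gpnmb and Ccnd2. Outside that set Iqgap1, a scaffold of the cell cortex, fell from 11.9, 9.05 and 9.29 CPM to 2.16, 0.429 and 0.793 CPM (-3.19 ± 0.45, adjusted p = 0.00433), and Crmp1, an axon guidance protein, by 3.33.

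The level of neuronal transcripts and the number of genes detected separated the ages, while the share of reads outside genes overlapped. With the mean log2 CPM of the 23 neuron markers as a covariate, 3 genes were higher (Tgm2, Thrsp and Tmem52) and 1 lower (Spp1), with 2113 and 2391 at an unadjusted p under 0.05. Since these markers separate the 2 ages in the 6 libraries, the covariate and age cannot be fully told apart. With the share of reads outside genes as a covariate, 100 genes were higher and 709 lower, of which 73 and 618 were among the calls above. The part of neuronal RNA in the other falls was not tested.

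Few markers of other brain cells were called. Over all genes 0.465% were called higher and 3.83% lower. Astrocyte markers (13 tested) had 1 call, the water channel gene Aqp4, with 118 reads at P9 and 3 at P14 (ratio 32.6, exact 95% counting interval 10.9 to 160.5). Their summed level was 136, 111 and 137 CPM at P9 and 87.5, 73.7 and 129 CPM at P14. Monocyte markers (9 tested) had 1 call, Fn1, the matrix protein fibronectin, at 2.02, 1.97 and 2.45 CPM and then 0.411, 0 and 0.872 CPM. Oligodendrocyte lineage markers had 0 calls of 17 and summed to 292, 362 and 380 CPM at P9 and 615, 482 and 441 CPM at P14. Within them Mbp, myelin basic protein, measured 69.7, 68.3 and 73.9 CPM and then 172, 91.6 and 133 CPM (log2 fold change 0.90, adjusted p = 0.199). Choroid plexus Ttr measured 15.4, 4.52 and 29.6 CPM at P9 and 3.39, 0.0858 and 0.793 CPM at P14 (adjusted p = 0.0565). Border-associated macrophage markers had 0 calls of 14 (median -0.96), with Mrc1, the mannose receptor, at 188, 74.4 and 122 CPM and then 16.9, 57.5 and 54.0 CPM. Dendritic cell, lymphocyte, neutrophil, endothelial and mural, erythroid and ependymal lists had 0 calls in edgeR's test. Over these and the oligodendrocyte and border-associated macrophage lists, 6 of 70 entries were higher and 9 lower at an unadjusted p under 0.05, and DESeq2 called 2 and 5, limma voom 0 and 1. Over all 18295 genes the same counts were 733 and 2564, then 197 and 1297, then 102 and 864.

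The change with age differed between genotypes for most of the genes that fell. Over all genes, 3857 (21.1%) had a different change in WT than in libraries labelled IRF8KO, tested as the interaction of age and genotype. From P9 to P14 the IRF8KO libraries had 3363 genes higher (18.4%) and 974 lower (5.32%). The interaction was called for 664 of the 700 genes that fell in WT and for 39 of the 85 that rose. Both sets were picked by the WT change that is part of the interaction, so these counts are descriptions and not tests. Of the 700, 593 were called higher in IRF8KO, 90 were not called and 17 were called lower. Neuron markers in the IRF8KO libraries summed to 21.8 to 35.2 CPM at P9 and 743.4 to 2660 CPM at P14, the opposite order to WT, and their part in these differences was not tested. Pfkp shows this contrast, with a log2 fold change of -4.57 in WT and 3.98 in IRF8KO (difference -8.55, adjusted p = 1.3e-06).

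Of the 85 genes that rose, 17 also rose in IRF8KO, 3 fell there and 65 were not called. The 17 are 20% of the 85, near the 18.4% of all genes called higher in IRF8KO, so the overlap is not a result about these genes. Those called higher in both include Sgk1 (1.85 in WT and 1.44 in IRF8KO), Adgrg1 (1.43 and 1.20), Thrsp (2.47 and 2.03), Lrrc3 (1.60 and 1.24) and Sult1a1 (1.39 and 1.24). The interaction was not called for these 5. The rise of Tgm2 differed, at 5.61 in WT and 0.41 in IRF8KO (difference 5.20, adjusted p = 2.52e-05). Mean CPM of Tgm2 in IRF8KO was 34.6 at P9 and 46.1 at P14, above both WT ages. Hs3st2 rose in WT and fell in IRF8KO (2.78 and -1.50, difference 4.28, adjusted p = 4.83e-05). Pmepa1 lay at 1.23 and -0.07 (difference 1.29, adjusted p = 0.00754).

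The 17 that fell in both genotypes are 2.43% of the 700, below the 5.32% of all genes called lower in IRF8KO. They include 3 of the 7 called early postnatal genes. Log2 fold changes in WT and IRF8KO were -2.76 and -1.73 for Spp1, -2.499 and -1.30 for Anxa2, and -1.93 and -2.35 for Lgals1. The differences for these 3 were not called, with adjusted p of 0.337, 0.191 and 0.63. Their levels differed between the genotypes. Mean CPM at P9 and P14 was 21.8 and 5.72 in WT and 636.7 and 124.9 in IRF8KO for Lgals1. For Anxa2 it was 14.2 and 2.52 in WT and 181 and 73.6 in IRF8KO. For Spp1 it was 59.3 and 8.72 in WT and 31.4 and 9.38 in IRF8KO. Others of the 17 are Dok2, an adaptor of myeloid signalling (-1.92 and -3.28), Slc1a5, a glutamine transporter (-1.63 and -2.19), Psat1, an enzyme of serine synthesis (-1.11 and -0.93), and Itgal, the integrin CD11a (-1.42 and -1.09). At P9 mean CPM in WT and IRF8KO was 25.3 and 120 for Dok2 and 51.9 and 63.7 for Slc1a5. It was 116 and 217 for Psat1 and 29.3 and 464 for Itgal. Gpnmb was not called in IRF8KO, at -4.42 in WT and -0.26 in IRF8KO (difference -4.16, adjusted p = 0.00085). The interaction was called for 8 of the 29 replication and 6 of the 30 mitosis genes, all with the lower value in IRF8KO, against 21.1% of all genes in either direction. Among them Mcm2 lay at -0.64 in WT and -3.04 in IRF8KO (difference 2.40, adjusted p = 0.0019), and Mcm6 at -1.14 and -2.62 (1.48, adjusted p = 0.0411). Both counts lie near the share of all genes, so they are not a result about these lists. In IRF8KO itself 24 of the 29 replication and 19 of the 30 mitosis genes were called lower from P9 to P14. None of either list was called higher there, and 5.32% of all genes were called lower and 18.4% higher.

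**Figure D5:**
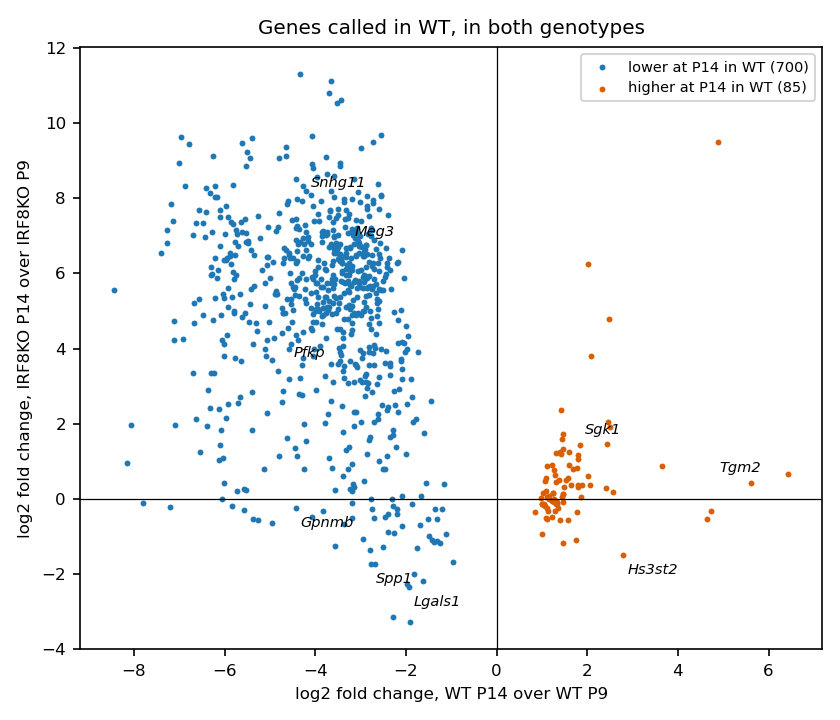
Log2 fold change of P14 over P9 in WT (horizontal axis) and in libraries labelled IRF8KO (vertical axis) for the genes called in WT. Most of the 700 genes that fell in WT (blue) lie above 0 in IRF8KO, while the 85 that rose (orange) lie mostly near 0.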

How the data were processed

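Libraries were made with SMART-Seq v4 and Nextera XT, per the labels' protocols, and keep no strand. Per the submitters' processing notes the authors used STAR 2.5.2b, Picard 2.17.11 and featureCounts on mm10. The deposited values are unstranded read counts per gene, 1 table per library, with 55536 genes after 4 entries that name no gene. These entries held 21.9% to 29.0% of reads in the 6 WT libraries and were left out. All identifiers occur in GENCODE mouse release M21, which gave symbols, coordinates and exon overlaps. The members and the gene lists were chosen with earlier results of these data known, so lists are described and not tested.

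Counts were fitted with edgeR 4.0.16 under R 4.3.3: TMM scaling, filterByExpr and a quasi-likelihood fit of 16 libraries in 6 groups (10 residual degrees of freedom), with Benjamini-Hochberg adjustment over 18295 genes and calls at 0.05. The 2 contrasts are P14 against P9 in WT and its difference from IRF8KO. CPM are TMM-scaled and log2 CPM use a prior count of 2. Each SE was back-calculated, as the size of the fitted log2 fold change over the square root of the F statistic of its quasi-likelihood test. Genes are named from calls that do not overlap between the ages, reach 10 CPM on average at the higher age and have no predicted-model symbol: the 12 largest fold changes and the 8 smallest adjusted p each way. Of the 12 largest falls 11 are given, and the other is not reported here. Members of lists, Irf8 and the 10 most abundant genes were added. Other names were chosen after their values were seen: Adrb1 and the genes called in both genotypes. For a group at 0 reads, 3 reads are placed over that group to give a bound, and intervals cover counting error only. Replicate counts varied by 7.21 (P9) and 13.1 (P14) times counting variance, and the fit was tested on simulated data. DESeq2 1.42.0 and limma 3.58.1 were alternatives. Equal replicate numbers are not stated to mark a litter or day and were not treated as pairs in the main fit.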

Additional observations from a re-analysis of the deposited data

Results flagged for a closer look

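The change from P9 to P14 differed between WT and IRF8KO libraries for 18 of 23 genes with the largest changes in WT, by the interaction term of the edgeR fit at an adjusted p of 0.05. Over all genes tested the interaction was called for 21.1%. The 23 genes were picked by their WT change, which is also part of the difference, so their count is a description and not a test. Differences are log2 fold change in WT minus that in IRF8KO. Among genes that rose in WT they were 5.20 for Tgm2, 4.28 for Hs3st2, 2.12 for Mymk, 1.82 for Slco4a1, 1.5 for Trp53i11 and 1.49 for Klhdc8b. For Chst8 the fitted difference was -4.22, but IRF8KO averaged 0 CPM at P9 and 0.772 CPM at P14, so this value depends on the prior count and is no bound. Among genes that fell in WT the differences were -4.16 for Gpnmb, -4.79 for Ccnd2, -5.79 for Dpysl3, -8.55 for Pfkp, -8.91 for Mapt, -9.49 for Gria1 and -9.54 for Mcf2l. They were -9.70 for Arpp21, -10.17 for Rian, -10.41 for Shank1 and -12.40 for Snhg11. Neuron marker sums moved in opposite directions in the 2 genotypes, and their part in these differences was not tested.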

How the results depend on the processing

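No alternative reversed the direction of any of the 67 called genes among the 165 named, and 25 of these 67 calls held in all 6 fits without 1 library. Counts of genes higher and lower at P14 (85 and 700) became 197 and 1297 with DESeq2. The higher count was 256 on the 6 libraries alone, 136 without the 4 adult libraries and, chosen after seeing the data, 135 without IRF8KO P14 replicate 3 (993 lower). The lower count was 1208 with no filter on low counts and 1383 with no scaling factors, the latter also added later. The neuron marker covariate left 3 and 1, with 2113 and 2391 at an unadjusted p under 0.05 (733 and 2564 without it). Leaving out each WT library gave 14 to 43 genes higher and 100 to 546 lower. With limma voom, RLE or upper quartile factors and a filter of 1 CPM in 3 libraries, both counts stayed within 1.5 times. Replicate numbers are not stated to mark a litter or day, and the main fit did not pair them. Deviations from the group mean correlated at -0.31, -0.09 and -0.02 between equal numbers and at -0.25 to 0.28 between unlike numbers. In this check 0 libraries were closest to their own number. With 3 libraries at each age it cannot exclude a shared litter or day. A fit of the 6 libraries with the replicate number as a block called 0 genes higher and 0 lower, with 639 and 1435 at an unadjusted p under 0.05. About 13 M gene reads per library leave genes below 1 CPM with few reads. The genes that fell had a median of 2.33 CPM at P9, so those that fell below 1 CPM rest on few reads at P14.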

Other observations

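Genes that respond to glucocorticoids and genes of the circadian clock include several of those that rose in WT microglia from P9 to P14. Both lists were written after these genes had been seen, so their counts are descriptions and support nothing. Of 15 glucocorticoid-responsive genes tested, 4 rose and 0 fell, against 0.465% and 3.83% of all genes. Besides Sgk1 the 4 were Tsc22d3, which encodes the anti-inflammatory protein GILZ, Ddit4, an inhibitor of mTOR, and Per1, a clock gene. The list median was 0.21, with 9 members above 0 and 6 below. Tsc22d3 measured 69.4, 72.6 and 85.2 CPM at P9 and 248, 176 and 136 CPM at P14 (log2 fold change 1.30 ± 0.35, adjusted p = 0.0434). Fkbp5, another member, had 46.1, 59.1 and 42.4 CPM and then 88.3, 56.0 and 53.6 CPM (adjusted p = 0.575). The list's summed level was 551.3, 705.4 and 589.5 CPM at P9 and 1763, 1190 and 1117 CPM at P14, and 889.3 and 1211 CPM in WT adults. Of these sums Sgk1 alone made up 202.8, 277.0 and 209.2 CPM at P9 and 1079, 709.3 and 692.7 CPM at P14. Calls of Tsc22d3 and Ddit4 were lost in all 6 fits without 1 library, while that of Sgk1 held in all 6.

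Of 19 clock genes 2 rose and 0 fell, against 0.465% and 3.83% of all genes, with a list median of 0.045. The 2 were Per1 and Usp2, and their calls were lost in 5 and 6 of the 6 fits without 1 library. Per1 measured 6.25, 8.31 and 9.36 CPM at P9 and 26.3, 23.7 and 14.3 CPM at P14 (1.43 ± 0.33, adjusted p = 0.023). The clock output factors Dbp and Tef lay at 1.53 and 0.86 with adjusted p of 0.0702 and 0.0525, and neither overlapped between the ages. The time of day of collection is not given in the sources used here.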
